A study of Oryza sativa Japonica Group with 32 samples.

Results

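The 8 rice genes described here encode seed storage proteins: the glutelins A1, A2, A3, B1, B4 and C, the 26 kDa globulin Glb1, and the prolamin Prol-01. They were chosen by their gene identifiers and made up 8 of the 38978 genes in the expression table. Sites of m6A (N6-methyladenosine, a methylated form of adenosine found in mRNA) were assigned to them by the identifier in the site table, which gave 39 of 205691 sites. The identifiers are Os01g0762500 for GluA1, Os10g0400200 for GluA2, Os03g0427300 for GluA3, Os02g0249800 for GluB1, Os02g0268300 for GluB4, Os02g0453600 for GluC, Os05g0499100 for Glb1 and Os03g0766100 for Prol-01.

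Storage proteins are laid down in the filling endosperm and feed the seedling after germination. Glutelins and the globulin travel through the Golgi to the protein storage vacuole, where the glutelin precursors are cut into an acidic and a basic chain, whereas prolamins aggregate inside the endoplasmic reticulum as a separate protein body. Their genes are among the most strongly transcribed of the grain, under bZIP, DOF and NAC factors that bind their promoters.

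PolyA RNA of Nipponbare, a japonica rice cultivar, was sequenced from 8 tissues with 2 treated and 2 untreated libraries each, 32 libraries in all, and the labels call the pair of samples per tissue biological replicates. The tissues were endosperm, embryo and flag leaf at 10 days after anthesis, panicle, seedlings at 8 days, seedlings at 2 weeks, and plumules at 3 days after germination in the light or in the dark. No group carried a mutation or an agent, so tissue, age and light were what set the groups apart. In m6A-SAC-seq the enzyme MjDim1 tags m6A bases so that reverse transcription misreads them in the treated libraries. Expression was deposited as TPM (a transcript level corrected for gene length and library size) for the 16 untreated libraries, whereas m6A was deposited as 1 fraction, 1 read depth and 1 detection flag per site and tissue, with no value per replicate.

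The number of reads behind the TPM values lay between 12856679 and 15516038 per library. The endosperm and embryo labels were checked against marker genes: 7 starch synthesis genes of the endosperm summed to 6821 and 6666 TPM in the endosperm libraries and to 635 and 667 TPM in the embryo libraries, while 5 embryo genes summed to 36312 and 31620 TPM in the embryo. The embryo genes were not absent from the endosperm libraries, where they summed to 6536 and 7656 TPM. This came mostly from the oleosin OLE16 at a mean of 4731 TPM, while the shoot meristem factor OSH1 stood at 0.0785 TPM. Green leaf genes summed to 1735 and 2247 TPM in endosperm but only 25.6 and 29.9 TPM in embryo. In plumules the 4 green leaf genes summed to 2243 and 2016 TPM in the light and 2879 and 2885 TPM in the dark. They were thus not higher in the light, and limma called 0 of the 4 in either direction. The light and dark labels were not borne out by these genes, and the reason was not tested. In such bulk samples, fewer cells of a type and less RNA per cell cannot be told apart.

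Transcripts of the 8 genes took 17.2% and 16.4% of the 2 endosperm libraries, 1.36% and 1.39% of the embryo libraries, and between 3.87 and 43.6 TPM in all of the 12 libraries of the other tissues. Prol-01, one of a large family of alcohol-soluble prolamins, was the most abundant gene of both endosperm libraries, at 72977 and 66931 TPM. It alone supplied 42.5% and 40.7% of the summed level of the 8 genes. Its level in the embryo libraries was 5919 and 6079 TPM.

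Among the glutelins, GluA1 was the highest, at 27906 and 25834 TPM in endosperm and 1991 and 2109 TPM in embryo. GluA2 had 19694 and 17984 TPM in endosperm, against 1241 and 1315 TPM in embryo. GluC, the sole member of its glutelin subfamily on the list, had 14144 and 12523 TPM in endosperm and 1208 and 1264 TPM in embryo. The endosperm libraries were thus all above the embryo libraries for these genes, and the same held for the lower glutelins.

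GluA3 reached 9978 and 9199 TPM in endosperm and 882 and 928 TPM in embryo. The B-type glutelins were listed far lower. GluB4 had 1261 and 1332 TPM in endosperm and 118 and 146 TPM in embryo, and GluB1 had 168 and 195 TPM in endosperm and 12.7 and 19.1 TPM in embryo. Glb1, the globulin that shares the vacuolar protein body with the glutelins, was at 25457 and 30288 TPM in endosperm and 2229 and 2068 TPM in embryo.

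In endosperm the order of mean TPM was Prol-01, Glb1, GluA1, GluA2, GluC, GluA3, GluB4 and GluB1. Glb1 (27873 ± 3416 TPM, SD, n = 2) and GluA1 (26870 ± 1465 TPM, SD, n = 2) could not be ordered, because their libraries overlapped, whereas all other neighbours were separated in both libraries. In embryo the order was kept, but there GluA2 (1278 ± 52.8 TPM, SD, n = 2) and GluC (1236 ± 39.1 TPM, SD, n = 2) overlapped as well as Glb1 and GluA1.

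**Figure D1:**
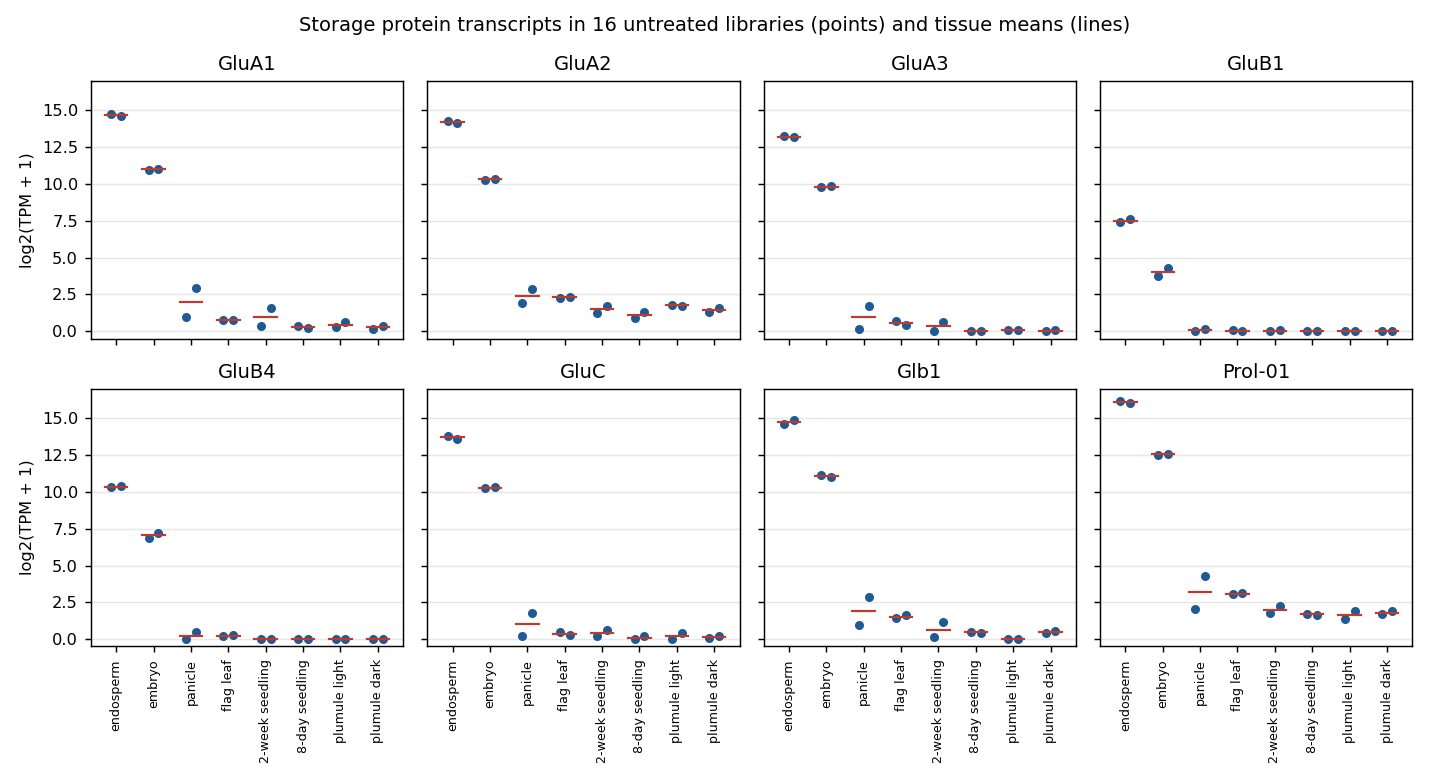
Level of each storage protein gene as log2(TPM + 1) in the 16 untreated libraries, by tissue. Points are single libraries and red lines the mean of the 2 libraries of a tissue. Endosperm stands highest, embryo next and the other 6 tissues lie near 0, with the second panicle library above the first in each panel.

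The place of GluB1 at the end of this order needs care. Glutelins are a multigene family with near-identical copies, and the sources used here do not say how reads shared between copies were counted. A second gene with the symbol GluB1, Os02g0249900, had 338 and 372 TPM in the endosperm libraries. The depth at the m6A sites gave another picture of the abundance. The median site depth of GluB1 in endosperm was 63803 reads, which is 352 reads per TPM, and that of GluB4 was 41780 reads, or 32.2 reads per TPM. Across 8224 genes with sites and at least 10 TPM the median was 3.77 reads per TPM, and 3 of them reached the GluB1 value or exceeded it, GluB1 included.

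GluA1, GluA2, GluA3 and GluC had between 4.13 and 5.80 reads per TPM in endosperm. By median site depth GluB1 lay between GluA3 (55591 reads) and GluA2 (79990 reads), and GluB4 a little below GluA3, while by TPM both lay far below them. Prol-01 had 1.10 reads per TPM at its single site. Glb1, also with a single site, departed most in the other direction, with 0.0299 reads per TPM. The 5th percentile over the 8224 genes was 1.84. The embryo gave the same picture, with 324 reads per TPM for GluB1 and 27.5 for GluB4. The TPM values of GluB1 and GluB4 are given as deposited, and the part of read assignment in this gap was not tested.

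The first comparison asked in which part of the grain at 10 days after anthesis the storage transcripts lie. All of the 8 genes were higher in endosperm than in embryo (limma on log2(TPM + 1), adjusted p from 3.41e-08 for GluA2 to 9.06e-05 for Prol-01 among the A-type glutelins, GluC, Glb1 and Prol-01, and 2.17e-10 for GluB1 and 1.8e-10 for GluB4). Of the 28562 genes tested, 24.4% were called higher in endosperm and 44.6% lower. The difference was largest for GluA2 at 3.88 ± 0.263 (SE) on the log2 scale and smallest for GluB4 at 3.29 ± 0.146 (SE). Another scaling moves the background and not the order of the 8 genes. With edgeR on the recovered reads, 37.2% of genes were called higher and 29.2% lower, and the median over all genes went from -0.20 to 0.09 on the log2 scale, while the difference was 4.43 for GluA2 and 3.84 for GluB4.

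As a ratio of mean TPM, embryo levels were 6.78% of the endosperm level for GluA2 and 10.2% for GluB4, with a median of 8.67% over the 8 genes. GluA1 stood at 7.63%, Glb1 at 7.71%, Prol-01 at 8.58%, GluB1 at 8.76%, GluC at 9.27% and GluA3 at 9.44%. Genes with very different endosperm levels therefore lay within a narrow band of embryo to endosperm ratios. The same ratio had a median of 13.6% over the 79 other genes with at least 1000 TPM in endosperm, with a range from 0.206% to 1942%.

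The starch synthesis genes, which mark the endosperm, had a median embryo share of 9.40% and ranged from 4.15% to 14.3%. The values of the storage genes fell inside this range. Whether endosperm tissue in the embryo samples had a part in the embryo levels was not tested, and the endosperm markers move with the storage genes as given here.

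**Figure D2:**
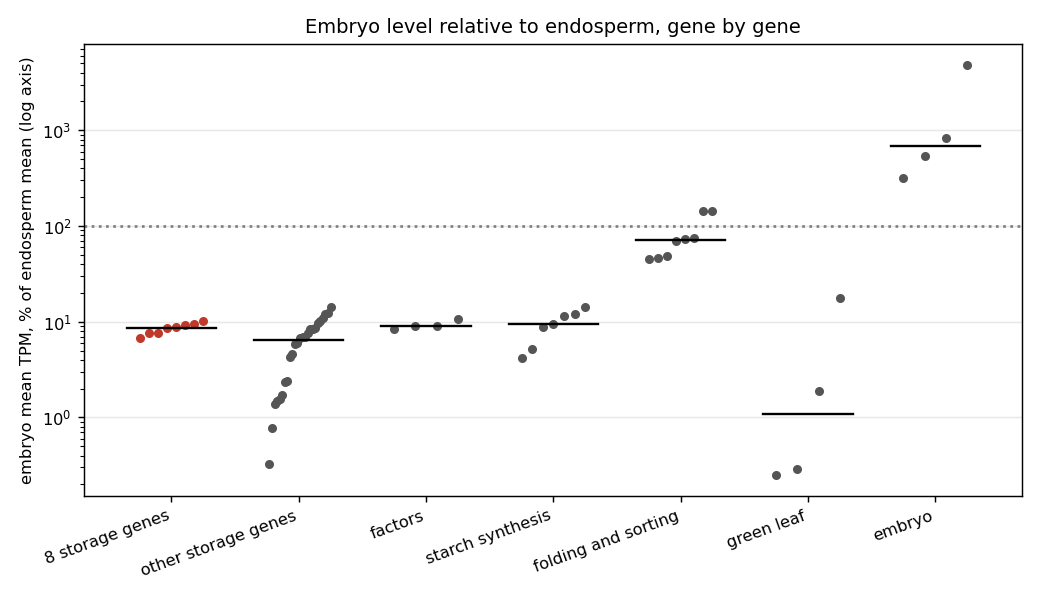
Mean embryo TPM as a percentage of mean endosperm TPM, on a log axis, for each gene with at least 1 TPM in endosperm. Points are genes, black lines are medians, and the dotted line marks equal levels; 1 other storage gene at 0 in embryo is not drawn. The 8 storage genes (red) lie between 6.78% and 10.2%, within the range of the starch synthesis genes, and the folding and sorting genes lie around a median of 71.3%.

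Other genes of the storage protein pathway were read from lists. Of 28 other glutelin and prolamin genes, taken by symbol, 25 passed the filter on low values and 25 of these were higher in endosperm than in embryo, with a median of 3.67 on the log2 scale against 3.50 for the 8 genes and -0.20 for all genes tested. For 5 of the 25 (Prol-05, Prol-07, Prol-10, Prol-11 and Prol-12) the filter was passed through the endosperm libraries alone, so that their difference was built in. The largest differences were in prolamins of a chromosome 5 cluster. Prol-04 differed by 6.57 ± 0.115 (SE), Prol-15 by 5.79 ± 0.104 (SE) and Prol-14 by 5.68 ± 0.149 (SE), each with an adjusted p of at most 1.08e-12 by limma. These prolamins had an embryo level below that of the 8 genes relative to endosperm: Prol-04 was at 351 TPM in endosperm and 2.70 TPM in embryo.

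The 4 factors that bind storage protein promoters were all higher in endosperm, among 24.4% of all genes. ONAC026 had 438 TPM in endosperm and 36.4 TPM in embryo, RPBF 378 and 33.9 TPM, ONAC020 351 and 31.9 TPM, and the bZIP factor RISBZ1 59.2 and 6.26 TPM. Their embryo share of 8.31% to 10.6% overlapped with that of the storage genes.

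Of the 8 genes for folding and sorting, 6 were higher and 2 lower in endosperm by limma, where 24.4% and 44.6% of all genes were, and their embryo share ranged from 44.9% to 143%. The chaperone OsBiP1 was at 1002 TPM in endosperm and 468 TPM in embryo, a difference of 1.10 ± 0.0960 (SE, adjusted p 2.08e-07 by limma). ERO1, the oxidase that recharges disulfide formation, differed by 1.12 ± 0.129 (SE), and GLUP3, the vacuolar enzyme that cuts glutelin precursors, by 1.03 ± 0.0846 (SE). ESP2, a protein disulfide isomerase needed for normal proglutelin handling, was lower in endosperm by limma (-0.51 ± 0.102, SE), but this was 0.03 with edgeR on the recovered reads, with an adjusted p of 0.764. The other lower gene, the sorting factor GPA3, named after its values were seen, went from -0.47 ± 0.103 (SE) to 0.04 with edgeR, with an adjusted p of 0.763, so neither lower call holds under the other scaling.

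The next comparisons asked how far the transcripts were restricted to the seed. Against the mean of the 6 non-seed tissues, the 8 genes were higher in endosperm by between 7.48 ± 0.119 (SE, GluB1) and 13.93 ± 0.395 (SE, GluA1) on the log2(TPM + 1) scale. For embryo the difference ranged from 4.02 ± 0.119 (SE, GluB1) to 10.33 ± 0.401 (SE, Prol-01). The limma call was met in 8 of 8 genes in both comparisons, with adjusted p of at most 4.06e-10, where 15.7% of all genes were called higher in endosperm and 24.3% higher in embryo. Lower calls made up 70.6% and 55.4% of genes, and with edgeR the split was 37.4% higher and 32.4% lower for endosperm and 36.7% higher and 34.4% lower for embryo. GluA3, GluB1, GluB4 and GluC passed the filter on low values only through seed libraries, so that for these 4 genes a difference was built in.

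Over the 12 non-seed libraries, GluA1 ranged from 0.111 to 6.79 TPM with a median of 0.428 TPM, and Glb1 from 0 to 6.37 TPM with a median of 0.460 TPM. GluA3 ranged from 0 to 2.26 TPM and GluC from 0 to 2.41 TPM, with medians of 0.0570 and 0.172 TPM. GluB1 and GluB4 were each at 0 in 9 of the 12 libraries and had at most 2 and 6 reads in any of them. Seed and non-seed libraries did not overlap for any of the 8 genes. How many of all genes show this was not counted. For GluA3, GluB1, GluB4 and GluC the filter favoured it, as they passed only through seed libraries.

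Prol-01 and GluA2 reached 1 TPM in more non-seed libraries than the other 6 genes, of which Glb1 did so in 4 and GluA1, with reads in each library, in 2. Prol-01 had at least 1 TPM in 12 of 12 non-seed libraries, from 1.52 to 18.8 TPM with a median of 2.71 TPM. GluA2 had at least 1 TPM in 11 of 12, from 0.843 to 6.47 TPM with a median of 2.33 TPM. In the flag leaf libraries GluA2 was at 3.85 and 4.07 TPM on 63 and 74 reads, and in plumules in the light at 2.47 and 2.31 TPM on 50 and 45 reads.

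Relative to its own endosperm level, GluA2 had a median of 1.24 TPM per 10000 TPM in the non-seed libraries. The same quantity was 0.387 for Prol-01, 0.165 for Glb1, 0.159 for GluA1, 0.129 for GluC and 0.0595 for GluA3. GluA2 therefore kept a higher share of its endosperm level outside the seed than any of the other abundant genes on the list. These levels rest on few reads, and no test between genes was run.

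**Figure D3:**
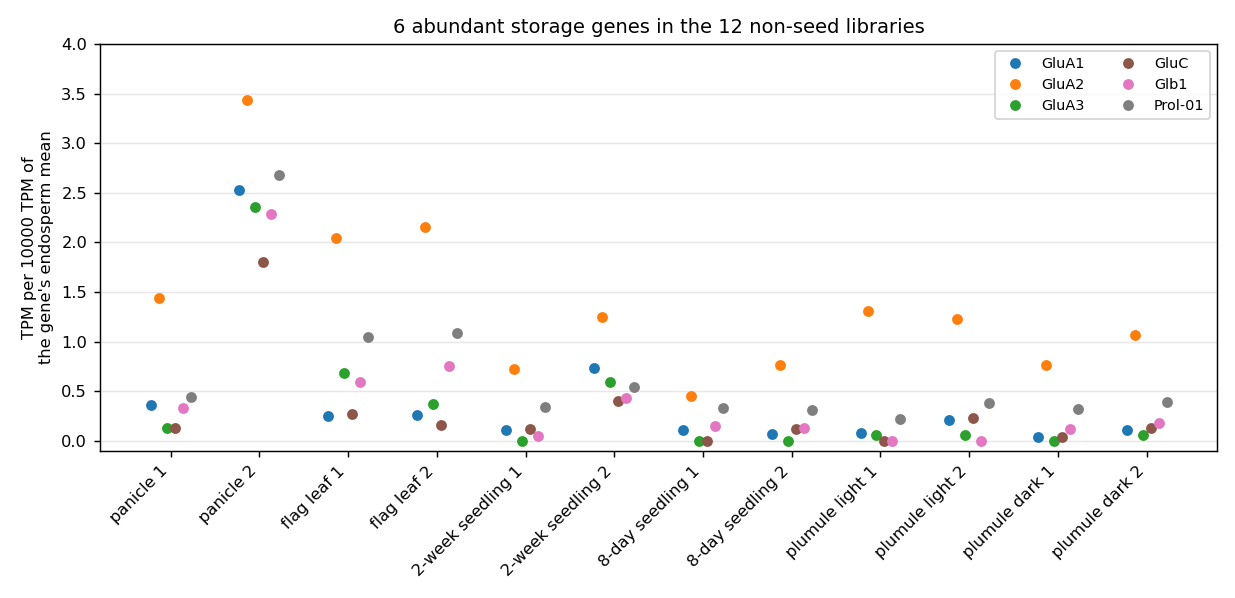
TPM of the 6 abundant storage genes in each of the 12 non-seed libraries, per 10000 TPM of the mean endosperm level of the same gene. Points are single libraries coloured by gene. GluA2 (orange) is the highest gene in each library, and the second panicle library is the highest library for each gene.

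One library stood apart. In panicle replicate 2 the 8 genes summed to 43.6 TPM on 442 reads, against 8.00 TPM on 90 reads in panicle replicate 1. The difference between the panicle libraries was nearly the same share of the endosperm level for each abundant gene: 2.24 per 10000 for Prol-01, 2.22 for GluA3, 2.17 for GluA1, 1.99 for GluA2, 1.95 for Glb1 and 1.67 for GluC. Other genes of the seed showed it too. Of 29 other genes with at least 1000 TPM in endosperm and less than a thousandth of it in each non-seed library, 27 were higher in panicle replicate 2, with a median difference of 1.88 per 10000. Of 11 embryo genes chosen in the same way from the embryo level, 11 were higher, with a median of 1.16 per 10000. Seedlings at 2 weeks showed a smaller gap, with a sum of 4.31 TPM in replicate 1 and 10.5 TPM in replicate 2. Without the panicle libraries, the 8 genes were called higher in endosperm and in embryo as before, 8 of 8 in each; this alternative was chosen after the data were seen.

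Plumules grow out of the germinating grain, and a comparison asked how their storage transcripts stood against those of later tissues. No gene was higher in the plumules than in the mean of the 8-day seedling, 2-week seedling, panicle and flag leaf, and 2 of 8 were lower, where 34.3% of all genes were called higher and 48% lower. Glb1 was at 0 in both light libraries and at 0.345 and 0.499 TPM in the dark libraries, against 1.64 and 2.09 TPM in flag leaf, 0.928 and 6.37 TPM in panicle, 0.123 and 1.19 TPM in 2-week seedlings and 0.420 and 0.360 TPM in 8-day seedlings. One 2-week seedling library was thus below the dark plumules, and the highest value was in panicle replicate 2, the library that stood apart. Glb1 was lower by limma (-0.89 ± 0.294, SE, adjusted p 0.0157) and with edgeR (adjusted p 0.0362). Prol-01 was at 1.52 and 2.68 TPM in the light and 2.21 and 2.74 TPM in the dark, against 7.32 and 7.60 TPM in flag leaf, 3.09 and 18.8 TPM in panicle, 2.36 and 3.80 TPM in 2-week seedlings and 2.30 and 2.14 TPM in 8-day seedlings. Its difference of -0.79 ± 0.321 (SE) had an adjusted p of 0.0407 by limma and 0.117 with edgeR, so the call does not hold in both.

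The libraries of plumules and of the later tissues overlapped for each of the 8 genes. GluB1 and GluB4 had no read in any of the 4 plumule libraries. The count of 2 depends on single libraries: it was 7 without panicle replicate 1 and 1 to 3 without any other single library.

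Between plumules in the light and in the dark no difference was detected for the 8 genes. These labels are taken as given, since the green leaf genes did not bear them out. The limma count was 0 of 8 in either direction, also at an unadjusted p of 0.05, and edgeR called 0 of 8, where limma called 0% of all genes higher and 0.0105% lower. GluA2 had 2.47 and 2.31 TPM in the light and 1.44 and 2.01 TPM in the dark, a difference of 0.32 ± 0.263 (SE) on the log2 scale. Glb1 had no read in the light and 3 and 4 reads in the dark. With so few reads a difference in most of these genes could not be seen at this depth, and the missed threshold does not show that light and dark were alike.

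The genes whose levels were most like the mean profile of the 8 over the 16 libraries were storage genes themselves. Among the 79 other genes with at least 1000 TPM in endosperm, Pearson r with the mean standardised log2(TPM + 1) was 0.9995 for Glu7*(GluB2), 0.9995 for Prol-22, 0.9990 for RP6, 0.9990 for Prol-25 and 0.9987 for Prol-23. Glu7*(GluB2) was at 8292 TPM in endosperm and 568 TPM in embryo, and Prol-23 at 12640 and 1279 TPM. These r values describe a split between seed and non-seed libraries that any gene of this kind shares, so they carry no p.

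Each of the 8 genes had at least 1 m6A site in the deposited table. GluA2 had 11 sites, GluB4 8, GluA1 7, GluA3 4, GluB1 4, GluC 3, and Prol-01 and Glb1 1 each. The 5 bases around a site are written here 5′ to 3′ with the measured adenosine in capitals, as they are the sole sequence in the deposited files, and positions are on IRGSP-1.0. Of the 39 sites, 32 were flagged as detected in endosperm and 29 in embryo, all of them at a depth of at least 20, and 28 were flagged in both. Of all 205691 sites, 47484 were flagged at that depth in endosperm and 52794 in embryo. For the 39 sites, only 4 combinations of site and non-seed tissue were flagged at that depth. Over all sites, flags at that depth ran from 42903 in 2-week seedlings to 73871 in flag leaf. Each of the 39 sites had a flag in at least 1 tissue, and outside GluA2 none had a flag outside the seed. Flags in the seed were thus built in for the other genes. The 39 sites were also not matched for depth with all sites, so these shares show no difference between them.

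Site depth in the seed was unusually high. The median was 73413 reads in endosperm and 5087 reads in embryo, where the median over all sites was 32 and 41 reads. The fractions are calibrated values without replicates, so no SD or interval is given. Over the flagged sites the median fraction was 0.167 in endosperm and 0.159 in embryo, against 0.341 and 0.351 over all flagged sites with a depth of at least 20. These sets were not matched for depth or region. For coding sequence sites flagged in endosperm the median was 0.167 in the storage genes. It was 0.143 over the 596 such sites of all genes whose depth reached 1000.

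Among flagged sites with a depth above 1000 in both seed tissues, the 5 highest endosperm fractions were in coding sequence of B-type and A-type glutelins. In GluB4 the site ccAca at position 9586416 of chromosome 2 (minus strand) had a fraction of 1.00 in both seed tissues, at depths of 40822 and 3848. In GluB1 the site caAgg at position 8460319 of the same chromosome had 0.657 in endosperm and 0.571 in embryo, and the site caAgg of GluB4 at position 9587700 had 0.538 and 0.461. In GluA3 the site ttAtc at position 17864572 of chromosome 3 (plus strand) had 0.590 and 0.588, and in GluA1 the site ttAgc at position 32077654 of chromosome 1 (plus strand) had 0.497 and 0.495. None of these 5 had the RAC motif (a purine before the adenosine and a cytidine after it) that is typical of m6A in mRNA. These fractions are given as deposited. GluB1 and GluB4 are the genes whose site depth was far above that of other genes relative to TPM. The part of read assignment between near-identical copies in these fractions was not tested. At a lower depth, the site gtAtt of GluB1 at position 8459289, annotated at a splice site, was flagged in endosperm with 0.817 at a depth of 121.

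Among RAC sites the highest was agAca of GluC, at position 14992746 of chromosome 2 (minus strand), with 0.409 in endosperm and 0.353 in embryo. It was annotated as 3′ UTR at transcript position 810, for a gene length of 1771 bases, and this annotation was not checked. The site gaAca of GluA1, at position 32077752, followed with 0.320 and 0.323. In GluA2 the highest was agAca at position 13497801 of chromosome 10 (minus strand), with 0.243 and 0.216. The single site of Prol-01, agAct at position 31729638 of chromosome 3 (minus strand), was annotated at a splice site and had 0.145 and 0.128. The single site of Glb1, gaAaa in the 5′ UTR at position 24577695 of chromosome 5 (minus strand), had a depth of only 833 in endosperm with a fraction of 0.828 and no flag, and was flagged in embryo at a depth of 43 with a fraction of 1.00.

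By motif, 18 of the 32 sites flagged in endosperm had RAC (56.3%), 1 had GAT (3.13%) and 13 had another motif (40.6%). Over the 1421 flagged sites of all genes whose depth reached 1000 the shares were 57.4%, 19.4% and 23.2%. RAC sites of the storage genes had a median fraction of 0.139 and the other motifs 0.380, against 0.1997 and 0.449 over those 1421 sites. By annotated region, 28 of the 32 lay in coding sequence (87.5%) and 2 in the 3′ UTR (6.25%), where 41.9% and 45.7% of the deep sites did. The 2 sites in the 3′ UTR were those of GluC. These shares are counts of sites that share genes, and no test was run on them.

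Fractions in endosperm and embryo lay close together. Where the depth reached 1000 in both tissues, which it did at 37 sites, the median of endosperm minus embryo was 0.00611, and differences ranged from -0.0587 to 0.0855. A difference smaller than 0.05 was seen in 33 of the 37 sites (89.2%), and in 71.1% of the 1261 other sites of the same depth. The largest differences were in B-type glutelins: 0.0855 for caAgg of GluB1 and 0.0774 for caAgg of GluB4 (0.538 and 0.461) were higher in endosperm, and -0.0587 for caAgc of GluB4 (0.365 and 0.424) was lower. Without replicate values, a difference of this size cannot be set against replicate error.

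**Figure D4:**
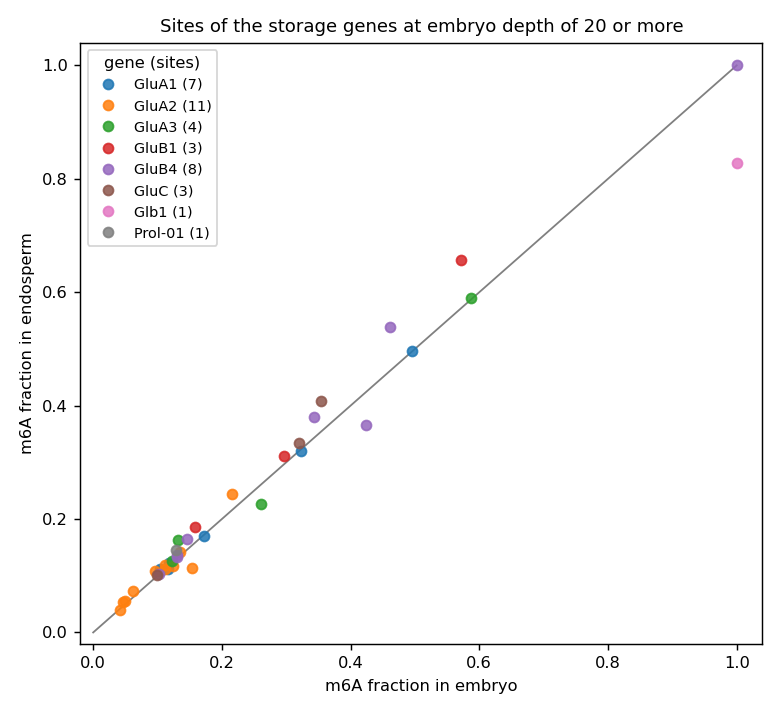
m6A fraction in endosperm (vertical) against embryo (horizontal) for the 38 sites of the 8 genes with an embryo depth of at least 20. Points are sites coloured by gene, with the number of sites per gene in the legend, and the grey line marks equal fractions. Most points lie on the line, and the Glb1 site at a depth of 43 in embryo is the farthest from it.

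Related glutelins carried sites at the same distance from a splice junction. At a distance of -129 bases agAca was listed in GluA1 with a fraction of 0.169, in GluA2 with 0.117 and in GluB4 with 0.164. At -55 bases caAgg was listed in GluB1 (0.657) and GluB4 (0.538). At 207 bases GluA1 had agAcc with 0.122, while GluA2 and GluB1 had agAca with 0.243 and 0.186, and at 385 bases agAcg was listed in GluA1 (0.112) and GluA2 (0.142). In all, 10 of the 36 glutelin sites with a stated distance fell on these 4 shared distances. The part of read assignment between near-identical copies was not tested here either.

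Outside the seed, low depth limited what could be read, least of all in 8-day seedlings. The median depth over the 39 sites was 44 in 8-day seedlings, 13 and 12 in plumules in the light and in the dark, 6 in flag leaf, 4 in panicle and 2 in 2-week seedlings. All 11 flags outside the seed were in GluA2. With a depth of at least 20 there were 3 in flag leaf and 1 in 8-day seedlings. The clearest case was ggAca in the 3′ UTR at position 13497481, which had a fraction of 0.0724 at a depth of 79990 in endosperm and 0.0619 at 5087 in embryo, without a flag in either, but 0.834 at a depth of 30 in flag leaf and 0.285 at a depth of 44 in 8-day seedlings, with a flag in both.

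The depth reached 20 at 32 of the 39 sites in 8-day seedlings. Their fraction was 0 at 21 of the 32, with a median depth of 51. At that depth 0 misread reads would still allow up to 5.88% misread reads by counting error alone. The fraction is a calibrated value, so this is not a bound on the m6A fraction. Of the 26 sites that were also flagged in endosperm, 18 had a fraction of 0 in 8-day seedlings, whereas 2632 of 45444 other sites flagged in endosperm did, at a median depth of 53.5 and 90 reads in 8-day seedlings. The 2 sets also differed in endosperm, with a median fraction of 0.177 and 0.363, and were not matched for it. The site gaAca of GluA1, for instance, was at 0.320 in endosperm and at 0 in 8-day seedlings at a depth of 66. The site ccAca of GluB4 was at 1.00 there too, at a depth of 20.

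The depth of the treated libraries and the TPM of the untreated libraries differed for the storage genes in several tissues, most of all in 8-day seedlings and plumules. For GluA1, the median site depth in 8-day seedlings was 5.94 per 10000 of that in endosperm, but its TPM was 0.0887 per 10000. GluA3, GluB1 and GluB4 had site depths of 6.03, 5.17 and 5.62 per 10000, and no read in either untreated library. For the 5 genes with a TPM above 0 the relative depth was a median of 18.4 times the relative TPM, from 0 for Glb1 to 150 for GluC, while it was 0.879 times over 6923 other genes (5th to 95th percentile 0.568 to 1.27). The value of GluC rested on 0 and 3 reads in the untreated libraries. The other genes had a depth of at least 20 and at least 10 TPM in both tissues compared. Outside the seed the 8 genes did not meet both limits, so these percentiles are no measure of the spread at such low values.

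In plumules in the light the same ratio ran from 1.77 for GluA2 to 22.5 for GluA3 over 5 genes, and in the dark it had a median of 9.74 over 6 genes, against medians of 0.917 and 0.889 over other genes. Against the mean TPM of both libraries, panicle went the other way, with a median of 0.258 over the 8 genes against 0.751 over other genes. It rested on median site depths from 0 for Glb1 to 11 reads for GluA2. That mean TPM was raised by panicle replicate 2, the library that stood apart. Against replicate 1 alone the direction was mixed. The site depth of GluA1 was 0.630 per 10000, and its TPM was 0.357 in replicate 1 and 2.53 in replicate 2. GluA3, GluC and Prol-01 also had depths above replicate 1. The depth was below it for GluA2 (1.38 against 1.44) and Glb1 (0 against 0.333). In flag leaf the medians were 1.60 and 0.976, and in 2-week seedlings 0.505 and 0.511. In the embryo the ratio was 0.919 over the 8 genes against 0.938, so that depth and TPM moved together there. Depth is 1 value per tissue, so it is not known whether one or both treated libraries carry these reads, and their source was not tested.

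**Figure D5:**
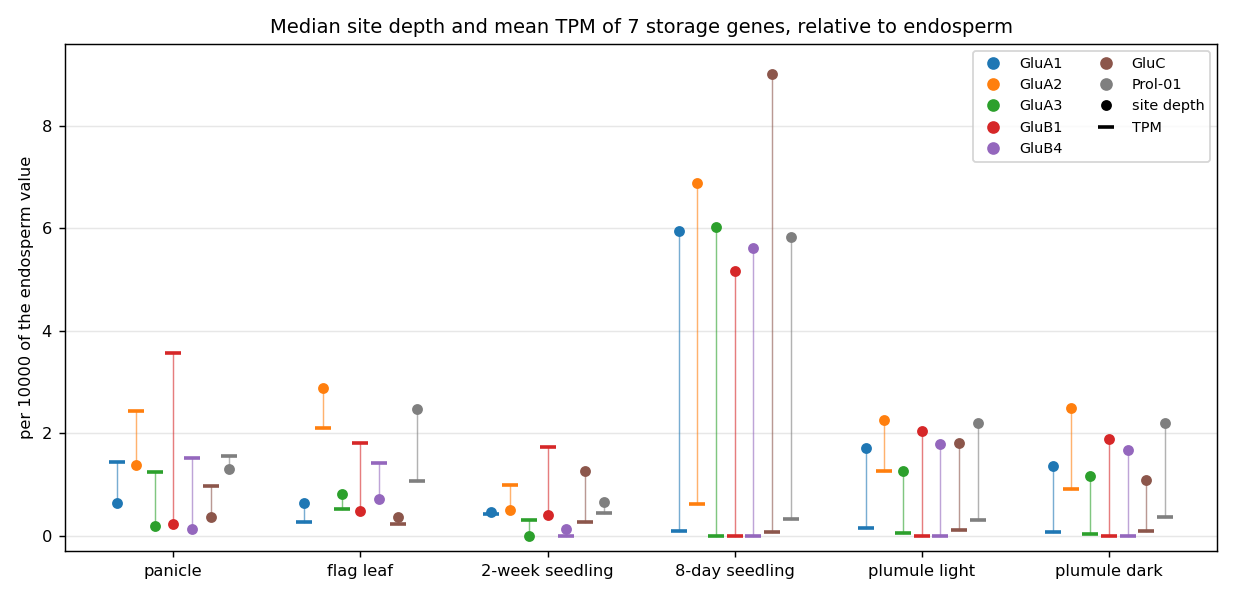
Median depth at the m6A sites of 7 storage genes (points, treated libraries) and their mean TPM (dashes, untreated libraries) in the 6 non-seed tissues, each per 10000 of the endosperm value of the same gene. Thin lines join the pair of values of a gene; Glb1, with a single shallow site, is not drawn. In 8-day seedlings the site depths lie between 5.17 and 9.01 and the TPM values below 1.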

How the data were processed

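The authors deposited TPM per gene for the 16 untreated libraries, mapped to IRGSP-1.0 (from the submitters' processing notes); the aligner and counter are not named in the sources read. Per site and tissue, the authors deposited an m6A fraction calibrated with spike-in probes, read depth as a whole-number count (sum or mean not stated) and a detection flag, replicates already combined. The header of the 2-week seedling flag is misspelled.

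TPM times gene length gave whole reads for 100% of values of up to 100 reads (tolerance 0.1), so reads were recovered. Genes reaching a TPM of 1 in 2 or more libraries were tested with limma 3.58.1 (R 4.3.3; trend, robust, two-sided) on log2(TPM + 1), which understates changes of low genes, with tissue as factor and Benjamini-Hochberg adjustment over all 28562 genes at 0.05. The scripts were checked on simulated data, where the share of false calls was above the threshold with limma and lower with edgeR. edgeR 4.0.16 (quasi-likelihood), a pseudocount of 0.1, no filter, rescaled TPM, a replicate block, fewer tissues and left-out replicates were alternatives. Fractions at a depth of at least 20 were described without a test. Python 3.11.15, numpy 2.4.6, pandas 2.3.3 and matplotlib 3.10.9 were used.

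The 8 genes and all lists were chosen with earlier results of these data known. Named genes were the 8 genes, the 5 most similar profiles, and up to 4 genes of each list that passed endosperm against embryo with the largest size.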

Additional observations from a re-analysis of the deposited data

How the results depend on the processing

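The 8 genes kept their direction and their calls in endosperm against embryo under all 10 alternatives (log2 difference 3.14 to 4.43), and in endosperm and embryo against the 6 non-seed tissues under all 21 (7.37 to 17.2 and 3.75 to 13.3). The upper ends come from edgeR, which has no added pseudocount of 1. Calls over all genes moved more. Counts higher and lower in endosperm against embryo were 6965 and 12751 with limma and 10623 and 8341 with edgeR, against non-seed tissues 4472 and 20172 and then 10671 and 9257, and in embryo 6928 and 15811 and then 10469 and 9815. In light against dark limma called 0 and 3 genes, edgeR 31 and 10, and the fit on these tissues alone 13 and 9. In plumules against later tissues the count of 2 lower genes was 1 with edgeR and 1 with only the tissues compared, where 4 of the 8 genes did not pass the filter, and a pseudocount of 0.1 gave 3, adding GluA1. Leaving out single replicates gave 1 to 7, the latter without panicle replicate 1. Under light, values without one plumule replicate ran from -0.0078 to 0.0754 for GluA3, -0.147 to 0.239 for GluC and -0.460 to 0.0869 for Prol-01, with signs on both sides and none called. The replicate block changed no call of the 8 genes and left the counts of 8, 8, 8, 2 and 0 as they were; replicate deviations of the 28 pairs of tissues correlated at -0.201 to 0.236, so the numbers pair nothing. Flagged combinations of site and non-seed tissue were 4 at a depth of at least 20, 11 with no minimum, 0 at 50, and 11 with a fraction of at least 0.1 in place of the flag. Causes were not tested. Genes with a few reads in non-seed libraries, and sites with a depth below 20, limit what can be read there.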
